A study of Mus musculus with 6 samples.

Results

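The genes described here are 10 ligands through which a cell in a tumour can restrain or engage immune cells, chosen by gene symbol from the deposited table of 55349 genes: Cd274, Pdcd1lg2, Cd80, Cd276, Vsir, Nectin2, Pvr, Tnfrsf14, Lgals9 and Cd47. Each symbol matched a single row. They were measured by RNA sequencing in subcutaneous tumours of B16F10, a pigmented mouse melanoma line. The 3 tumours labelled shControl (replicates 1, 4 and 5, here control tumours) have the genotype label WT, and the 3 labelled shSQLE (replicates 1, 2 and 5, here knockdown tumours) have the genotype label SQLE knockdown, directed against squalene epoxidase of cholesterol synthesis. All 6 carry the treatment label "no". Not given in the sources used here are host strain, age and sex, the hairpin sequence, and whether the line is a clone or a pool. Nor do the labels say that replicates are separate animals, so a p-value reflects the spread of these 6 libraries alone, which may be technical.

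Most checkpoint ligands work by contact. PD-L1 (Cd274) and PD-L2 (Pdcd1lg2) engage PD-1 on T cells, and CD80 engages CD28 or CTLA-4, so the same family can drive or brake a T cell. Nectin-2 and the poliovirus receptor (Pvr) share the activating receptor CD226 and the inhibitory receptor TIGIT, while CD47 engages SIRPα on phagocytes and restrains engulfment. Interferon-gamma is the best known inducer of PD-L1 in melanoma cells. Several of these ligands are made by both tumour cells and host immune cells, and a whole-tumour library mixes their RNA: fewer cells of a type and less RNA per cell cannot be told apart here.

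Promoters of 3 ligands are shown: Cd274 and Lgals9 are known interferon-responsive genes whose highest library was 3.54 and 2.59 times the lowest, and Cd47, at 1.29 times, varied least of the 10. The sequences are RefSeq windows of build GRCm38.p6, from 250 bases before to 50 bases after the annotated start, 5′ to 3′ on the gene's strand. Capitals mark matches, on either strand, to the core of the interferon-stimulated response element, taken as GAAA, then 2 bases of any kind, then GAAA. A second motif, the gamma-activated site TTCNNNGAA, which reads the same on both strands, was also searched, and no match of one motif overlapped the other.
Lgals9, chr11:78984875-78985174, minus strand: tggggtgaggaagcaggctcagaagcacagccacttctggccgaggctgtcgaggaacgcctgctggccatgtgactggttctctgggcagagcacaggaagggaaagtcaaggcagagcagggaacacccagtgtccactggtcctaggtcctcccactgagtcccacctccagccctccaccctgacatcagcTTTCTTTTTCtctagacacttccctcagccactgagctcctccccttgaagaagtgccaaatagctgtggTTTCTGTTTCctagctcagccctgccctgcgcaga
Cd274, chr19:29367188-29367487, plus strand: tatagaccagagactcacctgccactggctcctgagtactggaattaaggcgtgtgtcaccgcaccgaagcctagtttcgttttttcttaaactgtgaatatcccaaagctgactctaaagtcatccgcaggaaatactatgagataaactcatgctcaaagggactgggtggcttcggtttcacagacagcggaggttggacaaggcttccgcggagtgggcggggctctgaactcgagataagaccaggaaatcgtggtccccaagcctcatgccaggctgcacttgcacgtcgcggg
Cd47, chr16:49855404-49855703, plus strand: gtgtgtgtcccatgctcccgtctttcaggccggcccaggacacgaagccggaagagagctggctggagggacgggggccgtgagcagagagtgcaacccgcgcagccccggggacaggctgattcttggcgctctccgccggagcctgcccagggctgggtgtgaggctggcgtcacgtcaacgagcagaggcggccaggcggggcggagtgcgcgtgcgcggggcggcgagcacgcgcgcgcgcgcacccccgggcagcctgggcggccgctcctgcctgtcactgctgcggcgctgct

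Windows were found for 9 of the 10 ligands, and Pvr had no entry. The response element core was matched in 2 of these 9 genes, Lgals9 and Tnfrsf14, against 3.44% of all 32851 promoter windows of the same 300 bases. Lgals9 held it at bases 196 to 205 and again at bases 266 to 275 of the window, and Tnfrsf14 held it at bases 187 to 196. TTCNNNGAA was matched in 0 of the 9, against 8.3% of all windows. The Cd274 window holds neither run of letters. CpG dinucleotides numbered 39 in the Cd276 window, 35 in that of Cd47, 20 in that of Nectin2, 15 in each of those of Cd274 and Vsir, 4 for Lgals9, 3 each for Cd80 and Pdcd1lg2 and 2 for Tnfrsf14, against a median of 7 over all windows.

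Libraries held 16408622 to 19142185 expected counts. Sqle, the targeted gene, was lower in all 3 shSQLE libraries than in all 3 shControl libraries, at 66.8 to 77.1 CPM against 146 to 151 CPM (counts relative to library size after TMM scaling). Melanocyte genes were abundant in every library, with a summed level of 13600 to 17580 CPM over 10 markers and none at 0. Host cells were unevenly present, and control tumour 5 had the highest summed levels of macrophage, T cell and NK cell markers.

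The ligands spanned a wide range of abundance, and the order was nearly the same in every tumour. On a scale per gene length (TPM, counts divided by effective length and scaled to the same total in every library), Lgals9, which encodes galectin-9, a lectin that binds TIM-3, stood first at 137 ± 48.1 TPM (SD, n = 6). Nectin2 followed at 32.9 ± 8.97, Pvr at 18.4 ± 5.81, Cd47 at 13.6 ± 2.70 and Cd276 at 8.19 ± 2.34 TPM (SD, n = 6 each). Cd274 stood sixth at 2.27 ± 1.2 TPM (SD, n = 6). Each of these 6 genes was above the next in the order in 6 of 6 libraries. Across libraries, the mean ± SD ranges of Nectin2 and Pvr, of Pvr and Cd47, and of Cd274 and Tnfrsf14, the next below it, nevertheless overlapped.

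Below Cd274 came Tnfrsf14 and Vsir, whose order was not resolved, and then Cd80 and Pdcd1lg2. Tnfrsf14 at 1.47 ± 1.18 TPM and Vsir at 1.29 ± 0.788 TPM (SD, n = 6 each) did not differ beyond their spread, with Tnfrsf14 above Vsir in 3 of 6 libraries. They changed places when the full gene length replaced the effective length. Cd80 reached 0.168 ± 0.120 TPM (SD, n = 6), and Vsir was above it in 6 of 6 libraries. Pdcd1lg2, at 0.10 ± 0.208 TPM (SD, n = 6), was below Cd80 in 5 of 6 libraries, within their spread. Lgals9 made up 49.7% to 69.7% of the summed TPM of the 10 ligands, and Cd274 0.440% to 1.74%.

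**Figure D1:**
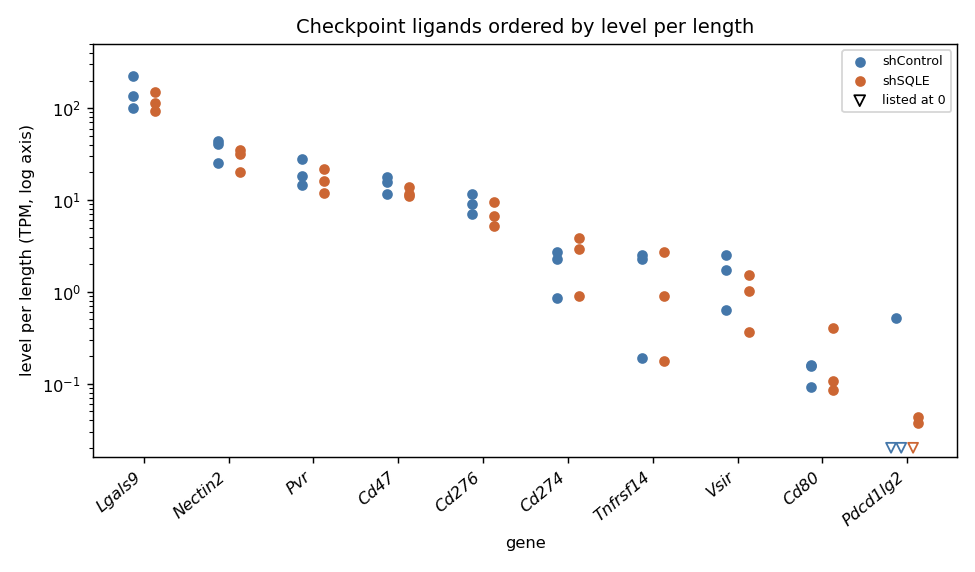
Level per length of each checkpoint ligand in each library (TPM, log axis), genes ordered by their mean over 6 libraries; points are libraries and open triangles mark libraries listed at 0. Lgals9 leads at a mean of 137 TPM, and Cd80 and Pdcd1lg2 are at the bottom, below 0.6 TPM in every library.

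Cd274, which encodes PD-L1, varied more within the groups than between them. Its level was 6.21, 3.01 and 8.57 CPM in control tumours 1, 4 and 5, and 3.27, 10.7 and 10.2 CPM in knockdown tumours 1, 2 and 5. Each group held a tumour near 3 CPM, control tumour 4 and knockdown tumour 1, while the others were at least 6.21 CPM, so the groups overlapped. Knockdown tumour 1 also had the highest summed level of the 5 haemoglobin and erythroid genes, 28650 CPM against 2853 to 7645 CPM elsewhere. Control tumour 4 and knockdown tumour 1 were also the lowest libraries in the summed markers of macrophages (171 and 96.9 CPM, against 278 to 572 CPM elsewhere), dendritic cells (34.5 and 39.2 CPM, against 56.6 to 115 CPM) and fibroblasts (150 and 66.1 CPM, against 317 to 570 CPM). Of the dendritic cell sums, Fscn1, picked once its values were known, gave 28.5 and 32.9 CPM in these libraries and 47.4 to 105 CPM elsewhere. That comparison is therefore mostly one of a single gene. The part of any of these levels in that of Cd274 was not tested. The log2 fold change of shSQLE over shControl was 0.44 (SE 0.50, 95% confidence interval -0.71 to 1.58), and edgeR's quasi-likelihood test over all genes gave an adjusted p of 0.9996 (0.407 unadjusted). It ran from 0.12 without control tumour 4 to 0.81 without knockdown tumour 1. Expected counts of Cd274 were 51 to 210 per library and were not whole in 4 of the 6, so a few reads may be shared with another gene.

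Pdcd1lg2, which encodes PD-L2, the second ligand of PD-1 and mostly a product of dendritic cells and macrophages, was almost undetected. It had 0, 0 and 13 counts in control tumours 1, 4 and 5 and 0, 1 and 1 in knockdown tumours 1, 2 and 5. A count of 0 allows up to 3 counts, or 0.163 to 0.177 CPM in those libraries, a limit that covers counting error only. Of the 15 counts in all, 13 came from control tumour 5, the tumour with the highest summed macrophage markers (572 CPM). Knockdown tumour 5, at 518 CPM of these markers, had 1 count of Pdcd1lg2. Dendritic cell markers summed to 68.5 CPM in control tumour 5, below the 115 and 95.1 CPM of knockdown tumours 2 and 5. Most of each sum was Fscn1, picked once its values were known, at 55.3, 105 and 86.7 CPM in these 3 libraries. The mean log2 CPM of the 5 tested dendritic cell markers was instead highest in control tumour 5, at 2.23, against 2.06 and 1.94 in knockdown tumours 2 and 5. Both interferon lists described below were also highest in control tumour 5. The part of these in the Pdcd1lg2 counts was not tested.

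Cd80, a ligand of both CD28 and CTLA-4 made mainly by antigen-presenting cells, had 2, 4 and 4 counts in control tumours 1, 4 and 5 and 3, 2 and 11 in knockdown tumours 1, 2 and 5. Neither Cd80 nor Pdcd1lg2 passed the filter on low counts, so 8 of the 10 ligands were tested. A difference between the groups in these genes was not detectable at this depth.

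Cd276 encodes B7-H3, a B7 family protein made by many solid tumours. It stood at 22.4, 22.7 and 34.3 CPM in control tumours 1, 4 and 5 and at 22.5, 23.9 and 16.5 CPM in knockdown tumours 1, 2 and 5. In 4 of the 6 libraries it lay between 22.4 and 23.9 CPM; control tumour 5 was above that band and knockdown tumour 5 below it. The log2 fold change was -0.33 (SE 0.25), with an unadjusted p of 0.212 in edgeR, the smallest of the 8 tested ligands, and an adjusted p of 0.9996. It was -0.10 without control tumour 5 and -0.19 without knockdown tumour 5.

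Vsir encodes VISTA, an inhibitory B7-like protein carried mainly by myeloid cells. Its level was 4.96, 2.36 and 8.52 CPM in control tumours 1, 4 and 5 and 1.41, 2.99 and 5.57 CPM in knockdown tumours 1, 2 and 5. The highest library was 6.05 times the lowest, the groups overlapped, and the log2 fold change was -0.67 (SE 0.58, 95% confidence interval -1.98 to 0.64; edgeR adjusted p = 0.9996). It was -0.14 without control tumour 5, -0.30 without knockdown tumour 1, -1.02 without control tumour 4 and -1.25 without knockdown tumour 5.

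Vsir followed the macrophage markers from tumour to tumour, and the 6 libraries fell in the same order by either measure. The mean log2 CPM of the 14 markers, all tested, was 3.44, 2.36 and 4.04 in control tumours 1, 4 and 5 and 1.59, 2.82 and 3.83 in knockdown tumours 1, 2 and 5, and their summed level ran from 171 to 572 CPM in shControl and from 96.9 to 518 CPM in shSQLE, with none of the 14 at 0 throughout. Subtracting that list mean from the log2 CPM of Vsir left a difference between -1.33 and -0.94 in all 6 libraries. This difference was -1.03 ± 0.087 in shControl and -1.17 ± 0.17 in shSQLE (SD, n = 3 each; exact two-sided permutation p = 0.3). With the list median in place of the mean, the group difference turned from -0.14 to 0.046. Whether macrophages account for the Vsir level was not tested.

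The poliovirus receptor family showed smaller spreads. Nectin2, a cell adhesion molecule and ligand of TIGIT and CD226, stood at 66.8, 53.5 and 83.1 CPM in control tumours 1, 4 and 5 and at 68.3, 58.3 and 42.4 CPM in knockdown tumours 1, 2 and 5. Pvr, whose product CD155 binds TIGIT, CD226 and CD96, stood at 54.7, 36.5 and 40.7 CPM in control tumours 1, 4 and 5 and at 41.6, 42.4 and 29.6 CPM in knockdown tumours 1, 2 and 5. Both genes were lowest in knockdown tumour 5, and the groups overlapped for both. That library, also the lowest in Cd276, had the highest summed level of the 8 skeletal muscle markers, 1548 CPM against 14.7 to 163 CPM elsewhere, and the lowest of the 9 mitochondrial genes, 9585 CPM against 18910 to 30020 CPM. Of those 9 mitochondrial genes, 6 passed the filter and the rest did not exceed 0.0590 CPM in any library, so that sum is in practice one of 6 genes. The part of these muscle and mitochondrial levels in the ligand levels was not tested. The log2 fold changes were -0.27 (SE 0.24) for Nectin2 and -0.22 (SE 0.23) for Pvr, each with an edgeR adjusted p of 0.9996. Nectin2 ran from -0.43 without knockdown tumour 1 to -0.0955 without control tumour 5, and was -0.098 without knockdown tumour 5. Pvr ran from -0.33 without control tumour 4 to -0.027 without control tumour 1, and was -0.059 without knockdown tumour 5.

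Tnfrsf14 encodes HVEM, a TNF receptor family member that binds BTLA, CD160 and LIGHT. It had 10, 1 and 13 counts in control tumours 1, 4 and 5 and 1, 13 and 5 counts in knockdown tumours 1, 2 and 5. It passed the filter through 3 libraries, 2 of them shControl and 1 shSQLE. The lowest libraries, control tumour 4 and knockdown tumour 1, were also those lowest in Cd274. The log2 fold change was -0.39 (SE 0.90; edgeR adjusted p = 0.9996), and it was 0.13 without control tumour 5 and 0.090 without knockdown tumour 1.

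Lgals9 stood at 105, 181 and 271 CPM in control tumours 1, 4 and 5 and at 128, 156 and 151 CPM in knockdown tumours 1, 2 and 5. The shControl libraries held both the lowest and the highest value, with all shSQLE libraries between them. The log2 fold change was -0.35 (SE 0.32; edgeR adjusted p = 0.9996). It was 0.023 without control tumour 5 and -0.64 without control tumour 1, where the unadjusted edgeR p was 0.0276.

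Cd47, the ligand of SIRPα, was the most even of the 10, with the highest library 1.29 times the lowest. Its level was 24.2, 20.3 and 24.8 CPM in control tumours 1, 4 and 5 and 19.9, 19.2 and 20.2 CPM in knockdown tumours 1, 2 and 5. All shSQLE libraries were below all shControl libraries, by a margin of 20.2 against 20.3 CPM. The log2 fold change was -0.23 (SE 0.19, 95% confidence interval -0.65 to 0.20; unadjusted p = 0.257 and adjusted p = 0.9996 in edgeR), and the exact two-sided permutation test gave p = 0.1, the lowest value possible with 3 libraries a group. The separation was kept with DESeq2 size factors and upper quartile scaling, and the groups overlapped with library size alone (19.6 against 20.1 CPM) and on the TPM scale.

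**Figure D2:**
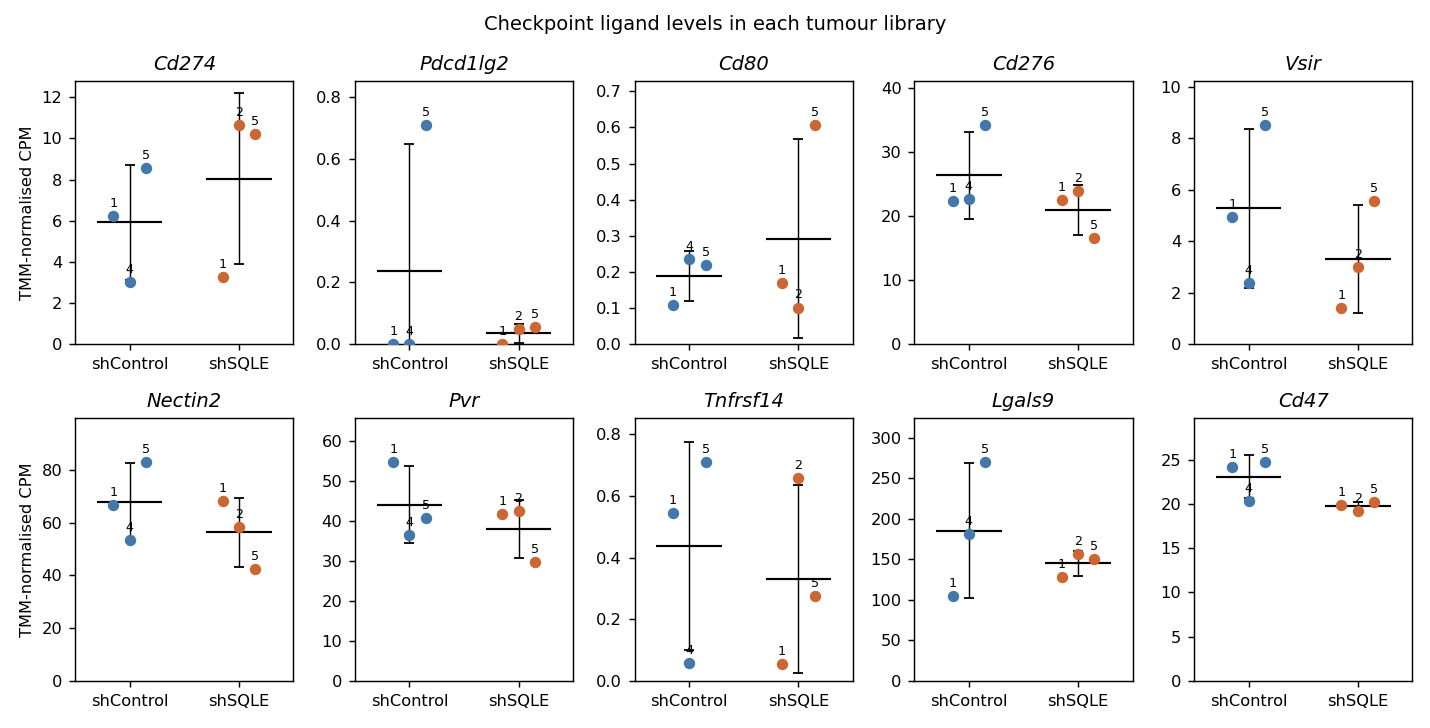
TMM-normalised CPM of each of the 10 ligands in the shControl and shSQLE libraries; points are libraries labelled by replicate, horizontal lines are means and bars are ± 1 SD (n = 3 each). Cd274 has a library near 3 CPM in each group, and for Cd47 alone all shSQLE points lie below all shControl points, with 20.2 against 20.3 CPM as the nearest values.

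Across the list, 0 of the 8 tested ligands passed an adjusted p of 0.05 in edgeR, where 0% of all 13268 genes tested did. Sqle, the targeted gene, did not pass either, at an adjusted p of 0.9996. At an unadjusted p under 0.05 the count was again 0 of 8 in edgeR (3.11% of all genes) and 0 of 8 in DESeq2 (3.55% of all genes). DESeq2 gave an adjusted p to 7 of the 8, all but Tnfrsf14, and called 0 of the 7 at 0.05, against 0.0655% of the 12218 genes with one. The groups did not overlap for 1 of the 8, Cd47 (6.44% of all genes). Of the 8, 7 had a log2 fold change below 0 and Cd274 one above 0. The median was -0.30, against -0.016 over all genes, of which 52.6% were below 0. Without control tumour 5 the median of the 8 was -0.098, with 5 of 8 below 0.

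Most markers of several host cell types were also below 0, while those of others were above it. None of the genes in the lists that follow passed over all genes in edgeR. Log2 fold changes were below 0 for 13 of 14 macrophage markers (median -0.27), all 10 endothelial markers (median -0.54), all 9 tested of 10 fibroblast markers (median -0.54) and all 4 tested of 6 adipocyte markers (median -2.54), while 3 of 10 melanocyte markers were below 0 (median 0.15). Without control tumour 5 the counts were 6 of 14 for macrophages, 10 of 10 for endothelium, 5 of 9 for fibroblasts and 4 of 4 for adipocytes. Without knockdown tumour 1 the macrophage count was 6 of 14, and without control tumour 1 the endothelial count was 6 of 10. Above 0 were all 8 skeletal muscle markers (median 3.11), all 5 haemoglobin and erythroid genes (1.06) and all 3 tested neutrophil markers (0.60). Without knockdown tumour 5, 6 of the 8 muscle and 2 of the 3 neutrophil markers were below 0. Without knockdown tumour 1, all 5 haemoglobin and erythroid genes were below 0. Of the tested markers, 3 of 5 for dendritic cells (median -0.12) and 3 of 3 for B cells (-0.27) were below 0. The part of these cells in the ligand values was not tested.

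**Figure D3:**
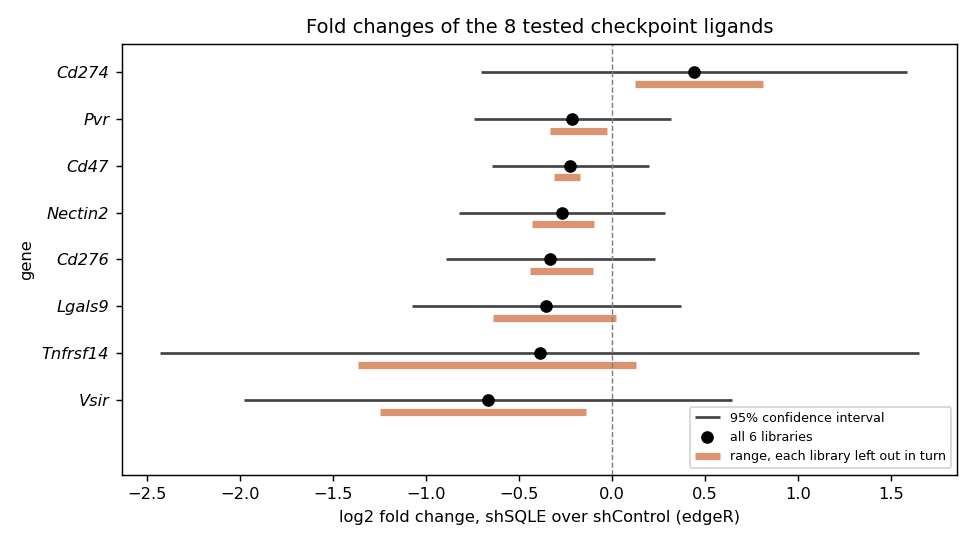
edgeR log2 fold changes of shSQLE over shControl for the 8 tested ligands, with 95% confidence intervals (dark lines) and the range when each library is left out in turn (orange bars). All 8 intervals include 0, and Vsir and Tnfrsf14 have the lowest estimates, -0.67 and -0.39.

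The interferon genes that control Cd274 were set beside it. Of 13 genes of interferon-gamma signalling, all tested, 11 had log2 fold changes below 0 and 2 above (median -0.19), and 0 passed over all genes. Without control tumour 5, 7 of the 13 were below 0 (median -0.073). Irf9, a subunit of the factor that type I interferon activates, was among those with the smallest p. It was at 13.3, 21.5 and 42 CPM in control tumours 1, 4 and 5 and 9.13, 10.9 and 11.3 CPM in knockdown tumours 1, 2 and 5, and its groups did not overlap, as for 6.44% of all genes (log2 fold change -1.30, SE 0.38; edgeR adjusted p = 0.9996).

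Downstream, all 15 interferon-gamma targets and all 22 type I interferon stimulated genes had log2 fold changes below 0, with medians of -1.46 and -1.75, and 0 genes of either list passed over all genes in edgeR. At an unadjusted p under 0.05, 0 of the 15 and 18 of the 22 were lower, against 1.62% of all genes tested. Both lists were highest in control tumour 5, and without it the medians were 0.056 and -0.63, with 7 of the 15 and 22 of the 22 below 0. The 4 tested adipocyte markers were each lower at an unadjusted p under 0.05 in edgeR. The summed level of all 6 was 63.9, 20.8 and 159 CPM in control tumours 1, 4 and 5 and 20.1, 19.9 and 26.9 CPM in knockdown tumours 1, 2 and 5, also highest in control tumour 5, and none was at 0 in all 6 libraries. Their part in the interferon values was not tested. In the first list the smallest p belonged to Iigp1 at -2.46 (SE 1.06) and Irgm1 at -1.65 (SE 0.73), both interferon-induced GTPases. In the second, Ifi44 was at -2.99 (SE 0.71) and Rtp4 at -2.64 (SE 0.76).

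Relative to both lists, Cd274 stood higher in the knockdown tumours, though its own level overlapped between the groups. The type I list mean did not overlap by itself, at 2.633 to 4.69 log2 CPM in shControl and 1.562 to 2.415 in shSQLE. A gene at the same level in all 6 libraries would therefore separate the groups relative to that list too. The mean of the interferon-gamma targets overlapped, at 3.02 to 5.97 in shControl and 2.14 to 3.75 in shSQLE. The log2 CPM of Cd274 minus the mean of the type I list was -0.0012, -0.99 and -1.57 in control tumours 1, 4 and 5, and 0.19, 1.51 and 0.95 in knockdown tumours 1, 2 and 5. Minus the mean of the interferon-gamma targets it was -0.86, -1.38 and -2.85 in control tumours 1, 4 and 5, and -0.39, -0.32 and -0.38 in knockdown tumours 1, 2 and 5. In both cases every shSQLE library was above every shControl library, and how many of all genes would do so was not computed. The group difference was 1.74 for the first and 1.33 for the second, each with an exact two-sided permutation p of 0.1, the smallest possible, and 0.15 when adjusted over the 3 within-library differences computed (this pair and that of Vsir), which were chosen after values were seen. Relative to the list median in place of its mean, the second had overlapping groups (1.14; exact permutation p = 0.2). Without control tumour 5 the group differences were 1.38 and 0.76.

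**Figure D4:**
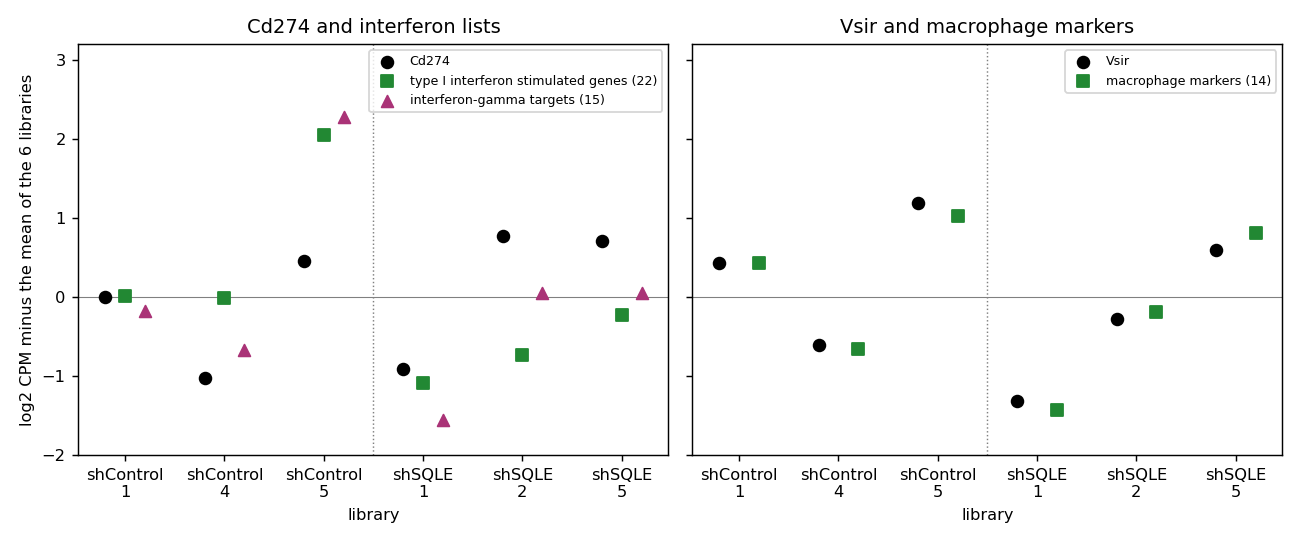
Log2 CPM centred on the mean of the 6 libraries for Cd274 with the means of 22 type I interferon stimulated genes and 15 interferon-gamma targets (left), and for Vsir with the mean of 14 macrophage markers (right); each symbol is 1 library. Cd274 lies above both interferon lists in all 3 shSQLE libraries, and Vsir and the macrophage mean lie close together in all 6. The type I mean does not overlap between the groups by itself.

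The genes whose centred log2 CPM was most like that of Cd274 over the 6 libraries, by root mean square difference among 13267 genes, were P4ha3 (0.0804), Hrct1 (0.160), Ecm1 (0.179), Rinl (0.213) and Cd4 (0.213). Ecm1, a secreted matrix protein, was at 32.2, 16.8 and 51.0 CPM in control tumours 1, 4 and 5 and 21.7, 76.0 and 51.6 CPM in knockdown tumours 1, 2 and 5, so it too was lowest in control tumour 4 and knockdown tumour 1. Cd4, the coreceptor of helper T cells, did not exceed 0.819 CPM. The closest to Cd276 were Gjb2 (0.0590), Ankrd34a (0.0767), Tiam2 (0.0966), Cyp2d22 (0.0973) and Gm8437 (0.102).

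Genes that act on PD-L1 protein after its synthesis had fold changes near 0. Of 13 such genes, all tested, 8 were below 0 and 5 above, from -0.48 to 0.16 on the log2 scale (median -0.053), and 0 passed over all genes or had an unadjusted p under 0.05 in edgeR. Without control tumour 1, 5 of the 13 were below 0 (median 0.061). Hip1r, which sends PD-L1 to lysosomes, was at -0.48 (SE 0.24), with counts that were not whole in all 6 libraries. B3gnt3, a glycosyltransferase acting on PD-L1, was at -0.39 (SE 0.27).

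The receptors that these ligands engage were mostly near the detection limit. Of 16 receptors and partners, 6 were tested, 4 below 0 and 2 above (median -0.18), and 0 passed over all genes. The median was 0.13 without control tumour 1 and 0.22 without control tumour 5, where 2 of 6 were below 0. Igsf11, a partner of VISTA, was at 5.77, 4.01 and 4.42 CPM in control tumours 1, 4 and 5 and 6.65, 8.37 and 5.63 CPM in knockdown tumours 1, 2 and 5 (log2 fold change 0.54, SE 0.29; edgeR adjusted p = 0.9996). Sirpa, which encodes the CD47 receptor, stood at 64.0 to 128 CPM (0.30, SE 0.23). It was at 87.5 CPM in knockdown tumour 1 and 95.5 CPM in control tumour 5, where the macrophage markers summed to 96.9 and 572 CPM. Which cells made it was not tested. The 10 untested genes, among them Pdcd1, Ctla4, Tigit, Cd226 and Btla, did not exceed 0.710 CPM in any library, the value of Pdcd1 in control tumour 5. Pvrig was at 0 in all 6.

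T cell and NK cell markers were sparse as well. The 10 T cell markers summed to 6.81 to 22.8 CPM in shControl and 7.77 to 10.1 CPM in shSQLE, and the 9 NK cell markers to 1.89 to 9.78 CPM and 0.451 to 2.15 CPM, with the highest value of both in control tumour 5. Lck, picked once its values were known, gave 4.52 to 10.2 CPM of the T cell sums. None of these markers was at 0 in all 6 libraries. Only 2 of the 10 T cell markers and 1 of the 9 NK cell markers passed the filter.

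Other inhibitory ligands and enzymes, 10 of 15 tested, split evenly, with 5 below 0 and 5 above (median -0.041), and 0 passed over all genes. Without control tumour 5 the median was 0.18. H2-T23, which encodes the Qa-1 heavy chain that NKG2A reads, was at 24.6, 25.8 and 57.8 CPM in control tumours 1, 4 and 5 and 19.2, 9.74 and 15.8 CPM in knockdown tumours 1, 2 and 5. Its log2 fold change was -1.27 (SE 0.38; unadjusted p = 0.00939 and adjusted p = 0.9996 in edgeR), and its expected counts were whole in all 6 libraries. Cd200, a ligand that restrains myeloid cells, was at 4.09, 1.48 and 1.91 CPM in control tumours 1, 4 and 5 and 0.901, 0.507 and 1.21 CPM in knockdown tumours 1, 2 and 5 (-1.51, SE 0.53; unadjusted p = 0.020 in edgeR). For both genes, named for their small p, all shSQLE libraries were below all shControl libraries, and groups did not overlap for 6.44% of all genes.

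Lgals3, which encodes galectin-3 and was picked once its values were known, went the other way, at 204, 154 and 371 CPM in control tumours 1, 4 and 5 and 204, 889 and 1031 CPM in knockdown tumours 1, 2 and 5 (1.54, SE 0.57; unadjusted p = 0.0261 and adjusted p = 0.9996 in edgeR). Its shSQLE libraries were uneven, with replicate 1 at the level of control tumour 1. All 5 tested costimulatory ligands of a list of 10 were below 0 (median -0.79), led by Cd48 at -0.93 (SE 0.78) and Cd40 at -0.80 (SE 0.78), and 0 passed over all genes or had an unadjusted p under 0.05. That median was 0.0055 without control tumour 5, with 2 of 5 below 0, -0.28 without knockdown tumour 1 and -1.62 without knockdown tumour 5.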

How the data were processed

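The authors deposited 1 table with an expected count per gene for each of the 6 libraries, a length and an effective length per gene. The tools named in the submitters' processing notes are FastQC, STAR, RSEM and DESeq2, and the build is GRCm39; not given in the sources used here are the annotation release and the strand setting. An expected count divides reads among genes, and 11.4% to 12.7% of the non-zero values of a library had decimals (beyond a tolerance of 0.005). Counts were rounded, filtered with filterByExpr (minimum count 10, minimum total 15; 13268 of 55349 genes kept) and TMM-scaled. Groups were compared with the quasi-likelihood test of edgeR 4.0.16 (R 4.3.3, robust=TRUE, group as the only term) with Benjamini-Hochberg adjustment over all genes, threshold 0.05. The SE is the fold change divided by the square root of F. List means average log2 CPM over tested members (prior count 2). TPM was computed from expected counts and the 1 deposited effective length per gene, whose library is not named. Single values were compared by an exact two-sided permutation test over libraries.

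The alternatives were other scalings and filters, DESeq2 1.42.0, limma 3.58.1 voom with and without quality weights, robust=FALSE, a block for the replicate number, and leaving out each library. Named genes are the 10 ligands, Sqle, the 2 of each pathway list with the smallest p, and the 5 genes most like Cd274 and most like the ligand with the smallest p; exceptions are marked, and 1 gene that the rule names is not reported here. Ligands and lists were chosen with earlier results of these data known. The scripts were tested on simulated counts. No pair of libraries agreed within sampling noise (chi-square per degree of freedom 37.2 to 136). Promoter windows are from RefSeq, GRCm38.p6. Figures used matplotlib 3.10.9.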

Additional observations from a re-analysis of the deposited data

How the results depend on the processing

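No ligand was called under any alternative. The replicate block compared the groups within replicate numbers 1 and 5 alone. A library whose number occurs in only 1 group adds nothing to that group difference. With this block, 2 of the 8 had an unadjusted edgeR p under 0.05, as did 1094 of all 13268 genes. They were Tnfrsf14 (log2 fold change -1.97, unadjusted p = 0.042, adjusted p = 0.595) and Vsir (-1.175, unadjusted p = 0.043, adjusted p = 0.596). The number of genes called over all genes tested, 0 in edgeR, was 8 with DESeq2, 41 with the replicate block, and between 0 and 29 when each library was left out, the highest without shSQLE replicate 1. Sqle passed with DESeq2 (log2 fold change -1.05, adjusted p = 8.15e-05). It did not pass in the main edgeR test (-1.05, unadjusted p = 1.7e-04, adjusted p = 0.9996), the adjusted p that each tested ligand also had there. With DESeq2's independent filtering tuned to 0.05 in place of its default of 0.1, the count was 6 and no ligand was called; this setting was run first, and the default took its place after its count was seen, to match an earlier treatment of these data. The direction turned for Cd274 with the replicate block (-0.32). In the libraries that block compared, Cd274 was at 6.21 CPM in control tumour 1 and 3.27 CPM in knockdown tumour 1. It was at 8.57 CPM in control tumour 5 and 10.2 CPM in knockdown tumour 5. Directions also turned for Tnfrsf14 (-1.37 to 0.13 over the libraries left out) and for Lgals9 (-0.64 to 0.023), and the cause was not tested. Groups share only replicate numbers 1 and 5, and deviations of same-numbered libraries had correlations of -0.13 and 0.0704, so the numbers were not taken to pair them.

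Cd276, Vsir, Nectin2, Pvr and Cd47 kept a negative fold change in all 17 alternatives, but it shrank to as little as -0.10, -0.14, -0.0955, -0.027 and -0.17 when a library was left out. With no filter, Pdcd1lg2 and Cd80 had edgeR adjusted p of 0.875 and 0.941; their 15 and 26 counts in all limit any comparison.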
